A study of Mus musculus with 8 samples.

Results

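The p200 family, also called HIN-200, is a set of interferon-inducible genes that lie side by side on mouse chromosome 1. The 10 genes described here were chosen by name, as the family genes Ifi203, Ifi204, Ifi206, Ifi207, Ifi208, Ifi209, Ifi211, Ifi213 and Mndal together with Aim2, and all 10 were found among the 55536 genes counted. RNA was sequenced from 8 whole tumors grown from HCA-1, a mouse hepatocellular carcinoma cell line, in the liver of male C3H mice that were 6 to 8 weeks old at implantation according to the labels, while the study's methods give a younger age. The 4 IMQNP tumors came from mice given 1 intravenous dose of PFSUV-IMQ on day 17 and were taken 3 h later. PFSUV-IMQ is imiquimod, an agonist of the RNA sensor TLR7, loaded into vesicles made without phospholipid. The remaining tumors were the Control group, whose mice received saline. There were 4 Control tumors. The comparison asked how early transcription in the tumor differed after PFSUV-IMQ. All tumors derived from the same implanted line, and the labels do not state that each tumor came from a separate mouse, so p-values measure the spread between these samples.

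Proteins of the p200 family carry a HIN domain, which binds DNA, and most also carry a pyrin domain, which binds other pyrin proteins. AIM2 detects double-stranded DNA in the cytosol and assembles an inflammasome with the adaptor ASC and caspase-1. IFI204 is a mouse relative of human IFI16, a DNA sensor that signals through STING. Several family members were first described as genes switched on by type I interferon in macrophages and other leukocytes.

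Total counts ranged from 16883911 to 27687756 per tumor. The TMM normalization factor was 0.843 in IMQNP replicate 2 and 0.981 to 1.09 in the other tumors. IMQNP replicate 2 was the highest tumor of its group for 34.8% of the 15998 genes tested and for 88.4% of the genes called higher. Hepatocyte markers summed to 4738 to 36930 CPM (counts scaled to library size with the TMM factors) in Control and to 7195 to 40129 CPM in IMQNP tumors. Of the carcinoma markers, Spp1 gave nearly all of the summed level, while Afp stood at 4.85 to 6.08 CPM and Gpc3 at 0.773 to 1.68 CPM in Control tumors.

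Family promoters share a short stretch just before the start site, which is shown because most of the genes carry it in nearly the same form. RefSeq promoters of build GRCm38.p6, from 250 bases before to 50 bases after the start site, were found for 12 of the 14 p200 genes counted and for 9 of the 10 genes described, with no entry for Ifi204. In each line the capitals mark 10 bases that match GAAANNGAAA, the core of the interferon-stimulated response element (ISRE) to which interferon regulatory factors bind, or differ from it by 1 base in Ifi209. The 5′ to 3′ sequence is that of the gene's own strand.
Ifi206: tgtctctgagGAAATCGAAAgctatgaacc
Ifi208: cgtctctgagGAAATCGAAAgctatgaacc
Ifi214: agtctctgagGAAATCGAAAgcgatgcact
Ifi209: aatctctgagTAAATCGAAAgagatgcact
Ifi207: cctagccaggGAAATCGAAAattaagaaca
Ifi203: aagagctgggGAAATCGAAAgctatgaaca
Ifi211: caaagccaggGAAATTGAAAgctatgaacg
The window of Ifi213 had the same letters as that of Ifi208, and the window at a start site of Mndal had the same letters as that of Ifi203. Against GAAATCGAAA, with positions counted from 1 at its 5′ end, Ifi209 carried G1T and Ifi211 carried C6T. The windows were chr1:173491339-173491368 for Ifi206, chr1:173536017-173536046 for Ifi214, chr1:173741831-173741860 for Ifi207, chr1:173942508-173942537 for Ifi203 and chr1:173913064-173913093 for Ifi211, all on the minus strand, and chr1:173673597-173673626 for Ifi208 and chr1:173630770-173630799 for Ifi209, both on the plus strand.

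Most p200 genes were higher in the IMQNP tumors, and Ifi211 and Aim2 were not called. A gene was called where its log2 fold change passed 1 in size with an adjusted p under 0.05, from edgeR's quasi-likelihood test and the Benjamini-Hochberg method applied to all 15998 genes tested. Of the 10 genes, 8 were called higher, against 2.26% of all genes tested, and 0 were called lower, against 0.2%. All 10 log2 fold changes were positive, and 9 had an unadjusted p under 0.05. In each of the 8, every IMQNP tumor lay above every Control tumor, which held for 6.0% of all genes tested. The median log2 fold change of the 10 genes was 2.08, against −0.03 over all genes tested. All 10 passed the filter on low counts, but Ifi206 reached the filter's level of 0.543 CPM in 1 Control tumor and Ifi213 in none, so these 2 passed through the IMQNP tumors and had to differ. Of the other 8 genes, 6 were called. Without IMQNP replicate 2, the number called was again 8. DESeq2's Wald test called 9 of the 10 higher, against 2.92% of the genes it tested, limma on the deposited normalized values called 7 of the 9 it tested, against 2.14%, and a fit with the replicate number as a block called 8, against 2.6%. In whole tumors, more cells of a type and more RNA per cell cannot be told apart.

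**Figure D1:**
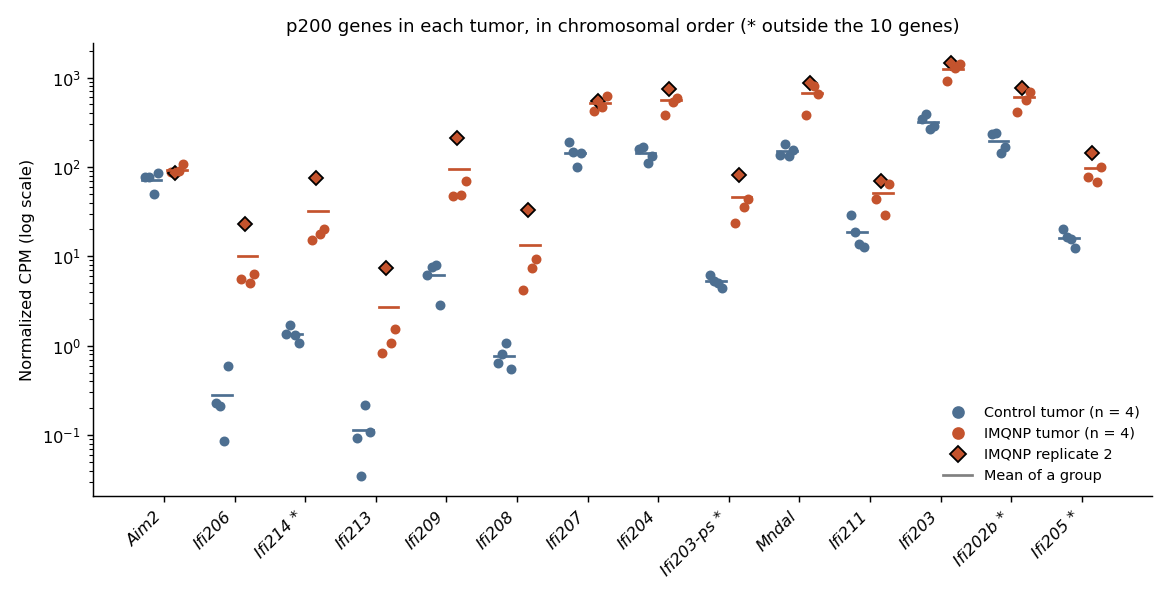
Normalized CPM on a log axis for each p200 gene in each of the 4 Control (blue) and 4 IMQNP (orange) tumors, in chromosomal order, with a line at each group's mean, a diamond for IMQNP replicate 2 and an asterisk for family genes outside the 10. Both groups overlap for Aim2 and Ifi211, and they are apart for the other 12 genes.

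Ifi203, Ifi204, Ifi207 and Mndal were the genes of the 10 with the highest levels per kb of exon in Control tumors, and they rose by 1.83 to 2.16 on the log2 scale. Ifi203 (ENSMUSG00000039997, chromosome 1, 173920407 to 173942672) stood at 343, 388, 267 and 291 CPM in Control replicates 1, 3, 4 and 5, and at 909, 1444, 1292 and 1401 CPM in IMQNP replicates 1 to 4. The lowest IMQNP tumor was more than 2 times the highest Control tumor. On the log2 scale the difference was 1.97 (SE 0.23, adjusted p = 0.00227), a 3.92-fold difference.

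Mndal (ENSMUSG00000090272, chromosome 1, 173849126 to 173942491), the mouse gene named for its likeness to human myeloid cell nuclear differentiation antigen, stood at 136, 179.8, 134 and 157 CPM in the Control tumors and at 380.1, 863, 812 and 663 CPM in the IMQNP tumors. IMQNP replicate 1 was the lowest of the treated tumors and still lay above all Control tumors. Its log2 fold change was 2.16 (SE 0.27, adjusted p = 0.00326).

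Ifi204 (ENSMUSG00000073489, chromosome 1, 173747293 to 173766943), the relative of IFI16, was measured at 159.8, 166, 111 and 133 CPM in Control and at 383, 755, 532 and 591 CPM in IMQNP tumors. As for Mndal, IMQNP replicate 2 was the highest and replicate 1 the lowest of the treated tumors. The difference was 1.99 on the log2 scale (SE 0.24, adjusted p = 0.00295).

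Ifi207 (ENSMUSG00000073490, chromosome 1, 173723427 to 173741747) was measured at 188, 146, 99.7 and 144 CPM in Control and at 418, 549.6, 474 and 621 CPM in IMQNP tumors. Its highest tumor was IMQNP replicate 4, not replicate 2. It changed by a log2 fold of 1.83 (SE 0.23, adjusted p = 0.00327), the smallest among the genes of the 10 that were called.

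Ifi206, Ifi208, Ifi209 and Ifi213 were at or below 8.03 CPM in every Control tumor and had the 4 highest fold changes of the 10 genes. Ifi209 (ENSMUSG00000043263, chromosome 1, 173630917 to 173647928) was the best counted of them, at 6.22, 7.55, 8.03 and 2.82 CPM in Control and 47.2, 211, 48.2 and 69.2 CPM in IMQNP tumors. IMQNP replicate 2 stood at 3.84 times the mean of the other 3 treated tumors, which themselves were all above the Control tumors. Its log2 fold change of 3.92 (SE 0.58, adjusted p = 0.00678) was 3.13 without IMQNP replicate 2.

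Ifi206 (ENSMUSG00000037849, chromosome 1, 173468485 to 173491041) had 5, 6, 2 and 11 counts in the Control tumors and 101, 333, 91 and 116 counts in the IMQNP tumors. These counts correspond to 0.0859 to 0.597 CPM in Control and 5.07 to 23.3 CPM in IMQNP tumors, with replicate 2 again the highest. The log2 fold change of 5.18 (SE 0.73, adjusted p = 0.00533) ranked 13 among all genes tested, and it was 4.34 without replicate 2. The ratio of the groups' summed counts per normalized library size was 35.8, with an exact 95% interval of 23.9 to 56.3 that covers counting error only.

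Ifi208 (ENSMUSG00000066677, chromosome 1, 173673675 to 173698395) had 14, 23, 25 and 10 counts in Control and 77, 475, 133 and 170 counts in IMQNP tumors. IMQNP replicate 2 was 4.73 times the mean of the other treated tumors. The log2 fold change was 4.12 (SE 0.66, adjusted p = 0.0110), and 3.16 without that tumor. Without Control replicate 1 the call was lost, at an adjusted p of 0.0511.

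Ifi213 (ENSMUSG00000073491, chromosome 1, 173566283 to 173599274) was the least expressed of the 10, with 2, 1, 5 and 2 counts in Control and 15, 107, 19 and 28 counts in IMQNP tumors. The ratio of summed counts was 22.7, with an exact 95% interval of 12.02 to 48.1 for counting error. Its log2 fold change of 4.54 (SE 0.89, adjusted p = 0.0288) fell to 3.29 without IMQNP replicate 2, where the call held. The call was lost in turn without each Control tumor and without IMQNP replicate 4, with an adjusted p of up to 0.104, so its size is the least certain of the group.

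Ifi211 and Aim2 did not pass the test. Ifi211 (ENSMUSG00000026536, chromosome 1, 173896345 to 173913046) was measured at 29.3, 18.6, 13.7 and 12.8 CPM in Control and at 44.0, 69.5, 28.8 and 64.4 CPM in IMQNP tumors. The groups overlapped, since IMQNP replicate 3 lay just under Control replicate 1. The log2 fold change was 1.47 (SE 0.35, adjusted p = 0.0604). Without Control replicate 1 it was 1.78 (adjusted p = 0.0460) and without IMQNP replicate 3 it was 1.67 (adjusted p = 0.0466), and in both cases the gene was called.

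Aim2 (ENSMUSG00000037860, chromosome 1, 173350879 to 173466040), the inflammasome sensor, stood at 76.5, 77.3, 49.3 and 86.0 CPM in Control and at 87.0, 84.5, 90.0 and 108 CPM in IMQNP tumors. IMQNP replicate 2 lay below Control replicate 5, and it was the lowest treated tumor for this gene. The log2 fold change was 0.35 (SE 0.19, adjusted p = 0.511). It ranged from 0.21 to 0.51 over 13 alternatives, limma and summed paralogs not among them, and none of the 13 called it. With 1148 to 2199 counts per tumor, depth was not low for this gene. Aim2 made up 7.21 to 10.4% of the summed CPM of the 10 genes in Control tumors and 2.09 to 3.82% in IMQNP tumors, ranges that do not overlap. This fall was built in, since Ifi203, Ifi204, Ifi207 and Mndal made up most of the sum and rose. The CPM of Aim2 itself was not lower in IMQNP tumors.

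**Figure D2:**
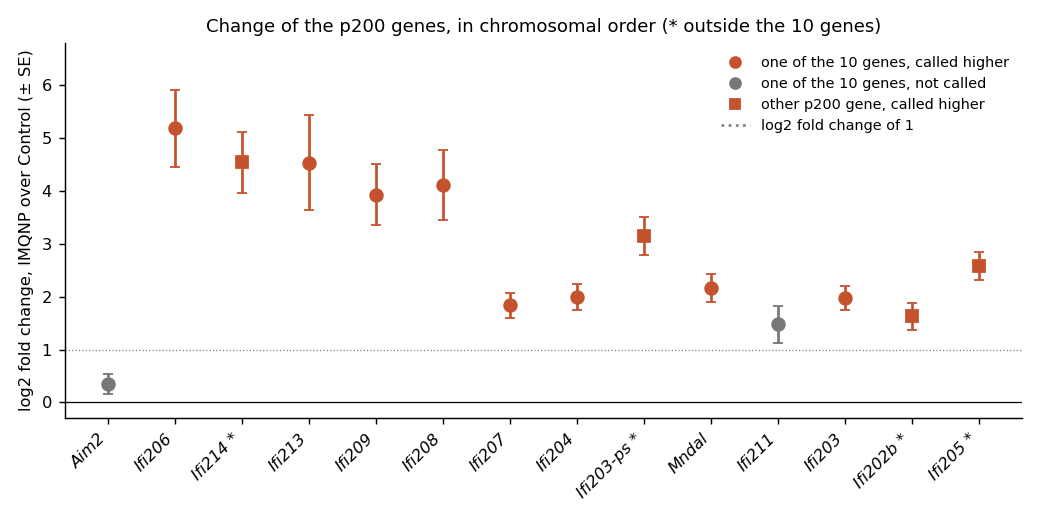
Log2 fold change of IMQNP over Control, with its SE from edgeR's quasi-likelihood fit (4 tumors a group), for the p200 genes in chromosomal order, with squares and asterisks for family genes outside the 10. Genes between Ifi206 and Ifi208 stand at 3.92 to 5.18, and Aim2 at 0.35 is the lowest.

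The 4 other p200 genes counted in the cluster were all called higher, against 2.26% of all genes tested. Ifi202b encodes a protein with HIN domains and no pyrin domain that binds DNA and restrains AIM2 signalling. It stood at 145 to 238 CPM in Control and at 414 to 763 CPM in IMQNP tumors, a log2 fold change of 1.63 (SE 0.26, adjusted p = 0.00972). Ifi205 stood at 12.4 to 20.4 CPM and 67.2 to 143 CPM (log2 fold change 2.58, SE 0.27, adjusted p = 0.00123). The pseudogene Ifi203-ps reached a log2 fold change of 3.14 (SE 0.37, adjusted p = 0.00243). Ifi214 had 1.09 to 1.69 CPM in Control against 15.2, 74.96, 17.6 and 20.1 CPM in the IMQNP tumors (log2 fold change 4.54, SE 0.57, adjusted p = 0.00327), and its log2 fold change was 3.66 without IMQNP replicate 2. IMQNP replicate 2 was the highest treated tumor for each of these 4 genes.

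Other genes counted within the cluster added little. Cadm3, a cell adhesion gene that starts before Aim2 and overlaps its span, had a log2 fold change of 0.32 (SE 0.52, adjusted p = 0.882) with overlapping groups. The pseudogene Gm18752 had 0 to 5 counts in Control and 7 to 28 counts in IMQNP tumors, and it did not pass the filter on low counts. Gm44481, Gm44339, Gm7871, Gm7897 and Gm38050 had at most 7 counts in any tumor.

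Levels per length showed a wide spread within the family. Per kb of annotated exon, the Control mean was 115 CPM for Ifi202b, and among the 10 genes it was 48.0 ± 8.08 for Ifi203, 42.3 ± 10.5 for Ifi207, 41.8 ± 5.89 for Mndal and 40.0 ± 7.06 for Ifi204 (SD, n = 4). These 4 overlapped from neighbour to neighbour and lay apart from Aim2, at 20.6 ± 4.54 CPM per kb. Ifi211 followed at 10.4 ± 4.26 CPM per kb, below Aim2 in 4 of 4 Control tumors although the ranges overlapped. Ifi209 stood at 1.74 ± 0.663, and Ifi208, Ifi206 and Ifi213 at 0.146 ± 0.0440, 0.0920 ± 0.0721 and 0.0165 ± 0.0110 CPM per kb, each overlapping the next.

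In the IMQNP tumors Ifi203 (188 ± 36.4), Mndal (187 ± 59.8), Ifi204 (159 ± 43.2) and Ifi207 (151 ± 25.9 CPM per kb, SD, n = 4) again overlapped and lay apart from the rest of the 10. Ifi211 (28.9 ± 10.5), Ifi209 (26.5 ± 22.1) and Aim2 (26.4 ± 3.00) could not be ordered, since each range overlapped the next. Ifi209 was above Aim2 per kb in 1 of the 4 IMQNP tumors, replicate 2, where it reached 59.4 CPM per kb, and its mean in the other 3 was 15.5 CPM per kb. Shares of the summed CPM of the 10 genes overlapped between groups for Ifi203 (37.5% in Control and 38.6% in IMQNP tumors), Ifi204, Ifi207, Ifi211 and Mndal. Those of Ifi206, Ifi208, Ifi209 and Ifi213 were higher in every IMQNP tumor than in any Control tumor, with Ifi209 at 0.736% and 2.68% on average. These shares restate the CPM values above and are no separate result. Ifi206 and Ifi213 passed the low-count filter through the IMQNP tumors, so they had to differ.

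**Figure D3:**
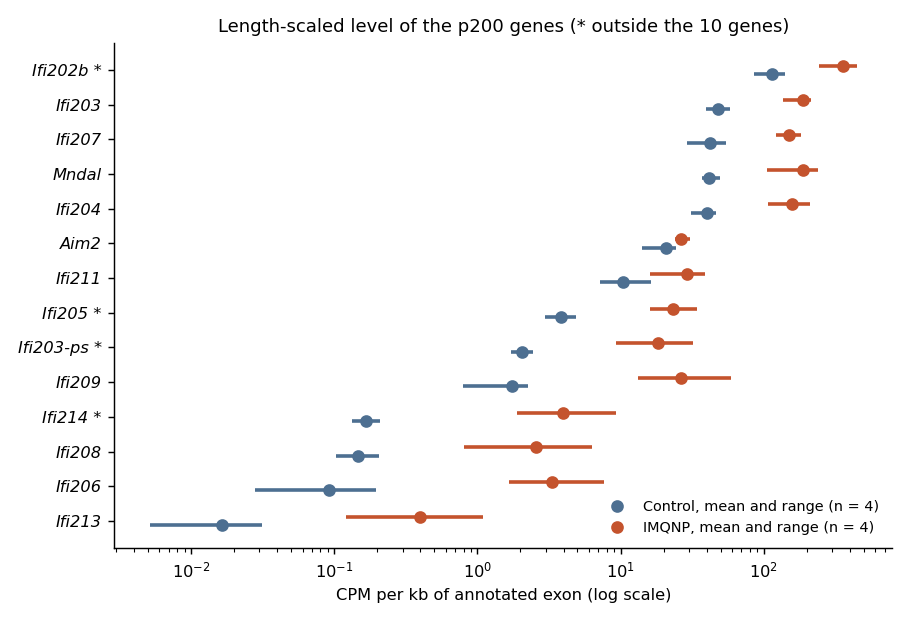
CPM per kb of annotated exon on a log axis for the p200 genes in order of the Control level, with the mean (point) and range (line) of 4 Control and 4 IMQNP tumors and an asterisk for family genes outside the 10. The 4 genes lowest in Control, Ifi213, Ifi206, Ifi208 and Ifi214, have means of 0.0165 to 0.168 CPM per kb there and of 0.399 to 3.94 CPM per kb in IMQNP tumors.

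Promoters of the family fall into groups of near copies, by which the fold changes are given here. Pairs with at least 75% identity over at least 200 aligned bases formed 4 groups, with limits chosen after the sequences were seen. Promoters of Ifi206, Ifi208 and Ifi213 were 98.5 to 98.9% identical, and their log2 fold changes were 5.18, 4.12 and 4.54, or 4.34, 3.16 and 3.29 without IMQNP replicate 2. The promoter of Ifi209 was 95.7% identical to that of Ifi214, with log2 fold changes of 3.92 and 4.54, or 3.13 and 3.66 without IMQNP replicate 2. Ifi203 and Mndal were 94.3% identical, at 1.97 and 2.16, and Ifi205, Ifi207 and Ifi211 were 86.6 to 93.1% identical, at 2.58, 1.83 and 1.47. The promoter of Aim2 was at most 58.0% identical to any other. With few groups and near-identical copies this is a description with no test.

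The word GAAANNGAAA, searched on both strands, was found before the start site of 9 of the 12 p200 genes with a promoter entry. It was in 3.44% of all 32851 promoters, in 3.3% of those of tested genes and in 23.9% of those of genes called higher, or 22.1% with the p200 genes left out. These shares count promoter entries over all 300 bases, while the 9 are genes with the word before a start site. The first entry of Ifi203 lacked the word. The exact word GAAATCGAAA was in 16 promoters in all, and 7 of the 16 were of p200 genes. It was picked as the form found most often before the start sites of p200 genes, so a high share there was built in. Some of the 7 also lie in the near-copy promoters described above, so they are not separate occurrences. The distance of its first base before the start site was 35 bases for Ifi203, 36 for Mndal, 40 for Ifi206, 41 for Ifi207, 58 for Ifi208, 73 for Ifi213 and 79 for Ifi214. Neither GAAANNGAAA nor GAAATCGAAA was found in the Aim2 promoter entry, which covers 1 start site while the annotation lists 6. TTCNNNGAA, the word of the gamma-activated sequence to which STAT dimers bind, was in 8.3% of all promoters and, among p200 genes, in that of Ifi202b. A match is a run of letters, not a measured binding site, and the reference is not the C3H strain.

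**Figure D4:**
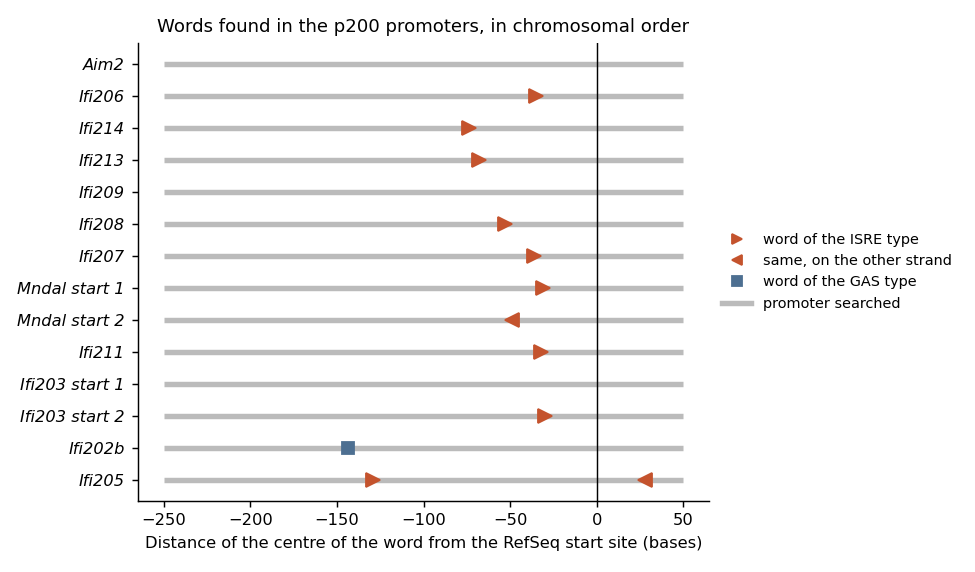
Position in bases from the RefSeq start site (0) of words of the ISRE type (GAAANNGAAA, triangles pointing with the strand) and of the GAS type (TTCNNNGAA, squares) in the p200 promoters searched (grey bars, 250 bases before to 50 after). The centres of forward words of the ISRE type lie 30 to 74 bases before the start except in Ifi205, at 129.

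Family genes share sequence, which bears on how reads were divided among them. Of the 50-base words in the longest transcript of Ifi211, 72.9% also occurred in another p200 gene, most of all in Ifi205. The share was 34.7% for Ifi209, 29.9% for Ifi204, 27.2% for Mndal, 25.9% for Ifi208, 15.1% for Ifi206, 10.6% for Ifi203, 5.31% for Ifi207, 4.83% for Ifi213 and 0 for Aim2. Words found in any other annotated gene, inside the family or not, were 24.5% for Ifi206, 7.17% for Ifi207 and 0.789% for Aim2. The levels of genes with large shares, and of Ifi211 most of all, are uncertain. Of the exon bases of Mndal, 4.27% overlap the pseudogene Gm38050, and of those of Ifi203, 0.552% overlap Mndal. The sum of the 10 genes does not depend on how reads were split among these 10, but it can depend on reads shared with Ifi205, Ifi214 and other genes outside them and on how multiply mapped reads were treated. It was 940.1, 984, 684 and 827 CPM in Control and 2278, 4042, 3291 and 3536 CPM in IMQNP tumors, a log2 fold change of 1.94 (SE 0.25).

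Of the inflammasome and DNA sensing lists, 2 genes each were called. Of 18 inflammasome genes tested, 2 were called higher, against 2.26% of all genes tested, and 0 lower, with a median log2 fold change of 0.57. They were Casp4, the caspase that detects cytosolic lipopolysaccharide (26.8 to 38.4 CPM in Control and 82.8 to 132 CPM in IMQNP tumors, a 2.82-fold difference, adjusted p = 0.00413), and Il1rn, the antagonist of the interleukin-1 receptor (42.8 to 66.3 and 115 to 304 CPM, log2 fold change 1.66, SE 0.33, adjusted p = 0.0309). The call of Il1rn was lost in turn without each Control tumor and without IMQNP replicate 4, with an adjusted p of up to 0.103. That left 1 inflammasome gene called. Unadjusted p was under 0.05 for 8 of the 18 genes, all of them higher in IMQNP tumors. In 6 of the 18, every IMQNP tumor lay above every Control tumor, which held for 6.0% of all genes tested. The partners of AIM2, named after their values were seen, were not called. Log2 fold changes were 1.18 for Pycard, which encodes ASC (adjusted p = 0.330), 0.96 for Casp1 (adjusted p = 0.103), 0.82 for Gsdmd (adjusted p = 0.115), 0.84 for Il18 (adjusted p = 0.369) and −0.66 for Il1b (adjusted p = 0.446). For Casp1 and Gsdmd every IMQNP tumor lay above every Control tumor, while the groups overlapped for Pycard, Il18 and Il1b.

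Of 15 genes of cytosolic DNA sensing tested, 2 were called higher, against 2.26% of all genes tested, and 0 lower. Their median log2 fold change was −0.03. Unadjusted p was under 0.05 for 5 of the 15, all of them higher in IMQNP tumors. In 5 of the 15, every IMQNP tumor lay above every Control tumor, against 6.0% of all genes tested. Zbp1, a sensor of Z-form nucleic acids, stood at 30.03 to 62.7 CPM in Control and 200.2 to 589.8 CPM in IMQNP tumors (log2 fold change 2.89, SE 0.39, adjusted p = 0.00424). Samhd1, which degrades nucleotides, stood at 167 to 273 and 683 to 1468 CPM (log2 fold change 2.04, SE 0.31, adjusted p = 0.00783). Cgas, also named after its values were seen, had a log2 fold change of 1.03 (adjusted p = 0.0695). It was not called, though every IMQNP tumor lay above every Control tumor. Trex1 was listed at 0 counts in every tumor.

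Of 15 interferon signalling genes, 6 were called higher, against 2.26% of all genes tested, and 0 lower, against 0.2%. Their median log2 fold change was 0.87. In 8 of the 15, every IMQNP tumor lay above every Control tumor, against 6.0% of all genes tested. The 3 with the largest change were Usp18, an inhibitor of the type I interferon receptor (12.5 to 20.2 CPM in Control and 259.8 to 895 CPM in IMQNP tumors, log2 fold change 4.82, SE 0.41, adjusted p = 0.000594), the transcription factor gene Irf7 (log2 fold change 2.94, SE 0.31, adjusted p = 0.00121) and the feedback inhibitor gene Socs1 (log2 fold change 2.74, SE 0.46, adjusted p = 0.0137). The call of Socs1 was lost without Control replicate 1 (adjusted p = 0.0627), and its log2 fold change was 2.06 without IMQNP replicate 2, where the call held.

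**Figure D5:**
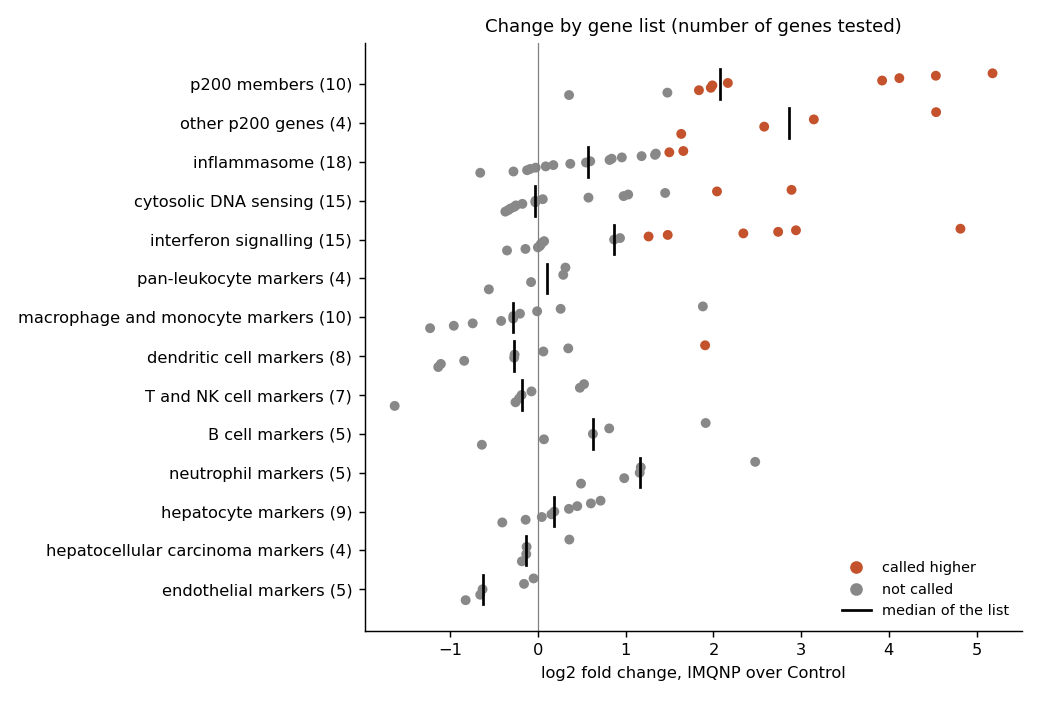
Log2 fold change of each tested gene (points, IMQNP over Control) by gene list, with the list's median as a bar, genes called higher in orange and the number of genes tested in brackets. The median of the 10 p200 genes (top row) is 2.08, and those of the cell marker lists lie between −0.63 and 1.16.

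Summed levels of leukocyte and macrophage markers overlapped between the groups. The 4 pan-leukocyte markers summed to 364 to 465 CPM in Control and 283 to 605 CPM in IMQNP tumors, with 0 of 4 called by edgeR's quasi-likelihood test, 0 by DESeq2's Wald test and 1 at an unadjusted p under 0.05. The 10 macrophage and monocyte markers summed to 1507 to 2320 and 1012 to 2111 CPM, with 0 called by edgeR's quasi-likelihood test and 3 at an unadjusted p under 0.05. DESeq2's Wald test called Ly6c2 higher and Ccr2 lower. In either direction, edgeR's quasi-likelihood test called 2.46% of all genes tested, so 0 calls in lists this short say little. Per pan-leukocyte CPM, the 10 p200 genes summed to 2.58, 2.26, 1.47 and 2.27 in the Control tumors and to 5.30, 6.67, 11.6 and 11.4 in the IMQNP tumors. The divisor itself differed between tumors. It was 283 and 311 CPM in IMQNP replicates 3 and 4, below every Control tumor, and these 2 had the highest ratios. Of its genes, Coro1a was lower in every IMQNP tumor than in any Control tumor, which held for 3.28% of all genes tested. The part of cell content in the p200 levels was not tested.

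The 8 dendritic cell markers summed to 165 to 222 CPM in Control and 337 to 538 CPM in IMQNP tumors, with 1 called higher by edgeR's quasi-likelihood test, and DESeq2's Wald test also called Flt3 lower. The gene called higher was Bst2, which interferon also induces in other cells, and without it the other 7 summed to 87.5 to 119 and 72.4 to 116 CPM. By edgeR's quasi-likelihood test, 4 of the 8 had an unadjusted p under 0.05. Of these, Bst2 was higher in IMQNP tumors, and the 3 others, Flt3, Xcr1 and Siglech, were lower. None of the markers of T and NK cells (7 tested), B cells (5), neutrophils (5), hepatocytes (9), hepatocellular carcinoma (4) or endothelium (5) was called by edgeR's quasi-likelihood test or by DESeq2's Wald test, as against 2.46% of all genes tested in either direction by the former. Unadjusted p was under 0.05 for 1 marker each of T and NK cells, B cells and neutrophils, and for 0 of the other 3 lists. Neutrophil markers summed to 15.7 to 59.5 CPM in Control and 30.7 to 143 CPM in IMQNP tumors, with the highest sum in replicate 2, and their part in the result was not tested.

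Over the 8 tumors, tested genes outside the family closest to the mean profile of the 10 were Ddx58, Slfn9, Parp11, Nt5c3 and Slfn8. The 4 other p200 genes were left out of this search. Likeness was the root mean square difference in log2 CPM after centring on the Control mean, which was 0.17 for Ddx58, the RNA sensor gene for RIG-I, 0.18 for the Schlafen gene Slfn9, 0.18 for Parp11, and 0.21 for both Nt5c3 and the Schlafen gene Slfn8. Among the p200 genes themselves the same measure ran from 0.20 for Ifi205 to 1.59 for Ifi206, with Aim2 at 1.55. The average over the 10 thus lay between the strongly and the moderately changed genes.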

How the data were processed

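Whole tumors, 4 Control and 4 IMQNP, were profiled by poly(A) RNA sequencing, and groups were taken from the sample titles. Tests were run on the read counts that the authors deposited, whole numbers for each gene and tumor. The authors also deposited signal values, their counts divided by a DESeq2 size factor for each tumor, from which gene symbols and 1 alternative were taken. The submitters' processing notes name CASAVA, FastQC, MultiQC, Trimmomatic 0.38, HISAT2 2.1.0 and featureCounts 2.0.0, whereas the study's methods name TopHat and HTSeq. How multiply mapped reads were counted, and the build, are not given in the sources used here. All 55536 identifiers are in GENCODE M21 (GRCm38), which gave positions and exon lengths.

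The reported fit used edgeR 4.0.16 in R 4.3.3 with TMM normalization, the default low-count filter and the quasi-likelihood test without covariates, checked on simulated counts. Standard errors are the log2 fold change divided by the square root of F. P-values were adjusted by Benjamini-Hochberg over 15998 genes. Alternatives used DESeq2 1.42.0, limma 3.58.1 on log2(signal + 1), other filters, a replicate block, summed paralogs and leaving out each tumor. The 3-count floor was 0.105 to 0.210 CPM.

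All 10 genes, the 4 other p200 genes and called genes of 3 pathway lists (at most 3 each) were named by rule. So were the 5 closest profiles outside the family and counted genes inside the cluster. The genes and lists were chosen with earlier results of these data known. Shared words were counted over the longest transcript of each gene, 50 bases at a time. Promoters were aligned pairwise.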

Additional observations from a re-analysis of the deposited data

Results flagged for a closer look

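In 4 of 30 sets of 4 tumors tested, 1 tumor stood apart from the other 3 by Dixon's criterion, which chance meets in about 1 in 20 sets. All 4 concerned IMQNP replicate 2. Ifi206 was at 23.3 CPM there, against 5.07 to 6.40 CPM in the other IMQNP tumors. Ifi214 was at 74.96 CPM, against 15.2 to 20.1 CPM. Ifi213 was at 7.48 CPM, against 0.828 to 1.54 CPM. Ifi209 was at 211 CPM, against 47.2 to 69.2 CPM. This tumor also had the lowest TMM factor, 0.843. Among the IMQNP tumors it had the highest hepatocyte marker sum, 40129 CPM, the highest pan-leukocyte marker sum, 605 CPM, and the lowest Spp1, 2946 CPM. The part of each in these values was not tested.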

How the results depend on the processing

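The number of the 10 genes called higher was 8 with DESeq2 size factors, under the replicate block and with no limit on the fold change, 9 with no filter on low counts and by DESeq2's Wald test, 7 of 9 tested by limma on the deposited normalized values, and 7 of 8 rows once genes sharing over 20% of their words were summed. Requiring at least 10 counts in every tumor left out Ifi206 and Ifi213 and gave 6. Leaving out 1 tumor at a time gave 7 to 9, with 0 to 0 called lower and 4 to 4 of the other p200 genes called. The log2 fold change of the sum ranged from 1.80 to 2.07, and was 1.92 with the other p200 genes added, an alternative chosen after seeing the data.

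Called inflammasome genes numbered 4 by DESeq2's Wald test and 1 to 2 when 1 tumor was left out, where Il1rn lost its call without each Control tumor and without IMQNP replicate 4. DNA sensing genes numbered 4 with no filter and 4 by DESeq2's Wald test, and 2 to 3 with 1 tumor left out. Interferon signalling genes numbered 4 to 6 with 1 tumor left out. The cause was not tested. Ifi211 was also called with no filter (adjusted p = 0.0149) and by DESeq2's Wald test (adjusted p = 0.00496). For the 26 named genes, values were compared over the alternatives other than limma and summed paralogs. Of these, 320 kept their direction and side of the threshold, 12 lost a call, 4 gained one and 0 changed sign.

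Both groups hold replicates numbered 1, 3 and 4, but same-numbered tumors come from different animals and their deviations correlated at 0.29, −0.27 and −0.32, so the numbers do not pair the samples. With the replicate block, 8 of the 10 genes were called and the log2 fold change of the sum was 1.80. The same block gave log2 fold changes of 2.90 for Ifi209, 3.02 for Ifi208, 3.36 for Ifi213, 3.59 for Ifi214 and 2.02 for Socs1. Depth limits Ifi213 and Ifi206 in Control tumors, where their counts were 1 to 5 and 2 to 11.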
